A study of Danio rerio with 16 samples.

Results

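The genes described here encode the proteins with which neurons load, dock, fuse and recover synaptic vesicles. They were listed by symbol, 42 zebrafish genes in all, and looked up by symbol in a table of 22994 genes. Of these, 36 had a row of their own, and those 36 are the members counted below. For 20 members the symbol was found as written, 6 stood under the human form of the symbol with no second row left, and 10 were the 2 copies of each of 5 genes, among them SNAP25, RAB3A, BSN and SLC17A6, for which the table gives the human symbol on both rows, so that the copies are named by gene ID and not by letter. For the other 6 members (napba, syt2a, cplx4a, dnm1a, slc17a7a and slc18a3a) it could not be settled which of 11 rows is the listed copy. Those rows are given separately. All 36 members passed the filter on low values, a mean normalized count of at least 5 over the 16 libraries, and 31 also reached the mean of 75 that a call required. The 5 below it were stx1a, syt1b, sv2c, unc13ba and slc18a2.

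Neurotransmitter is released when a vesicle fuses with the plasma membrane of the nerve terminal. A SNARE protein on the vesicle (synaptobrevin, encoded by the vamp genes) zips together with SNAREs on the plasma membrane (SNAP25 and syntaxin), Munc13 (unc13) helps to prepare the complex, and synaptotagmin triggers fusion when calcium enters. Vesicles are filled beforehand by transporters that are specific to the transmitter, and their membrane is retrieved afterwards by dynamin and its partners. Glucocorticoids are known to act on the vertebrate brain through the glucocorticoid receptor (GR), the product of nr3c1.

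RNA was sequenced from pools of 8 whole zebrafish larvae of the AB strain at 5 days post fertilization (dpf), with 4 libraries in each of 4 groups. VBA- cortisol and VBA- vehicle larvae were homozygous for GR369-, a CRISPR-Cas9 frameshift allele of nr3c1, and were picked because their pigment cells failed in visual background adaptation (VBA). VBA+ cortisol and VBA+ vehicle larvae came from the same crosses, passed that screen, and were a mixture of wild type and heterozygous animals, so that they were not a wild-type control. Cortisol larvae developed in 1 uM cortisol and vehicle larvae in DMSO, in both cases starting within hours of fertilization, and the 4 pools of a group came from 1 dish. Dish, order of collection and group therefore cannot be told apart, and p-values measure the spread between pools of the same dish.

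The authors forced all libraries to share 1 set of values, which add up to 14653434 in each library, so the sequencing depth behind a value is unknown and no counting error is attached to it. A level below is the log2 of the normalized count plus 0.1, and a change is a difference of such levels. NR3C1 (ENSDARG00000025032), the mutated gene, had levels of 7.83 to 9.21 in VBA- cortisol and 8.42 to 9.33 in VBA- vehicle libraries, against 9.39 to 9.59 in VBA+ cortisol and 9.18 to 9.52 in VBA+ vehicle libraries. VBA- vehicle replicate 3 (9.33) and VBA- cortisol replicate 1 (9.21) lay within the VBA+ vehicle range. A frameshift allele can still be transcribed, so these levels alone do not settle the genotype of a pool. The study took the lower nr3c1 of VBA- samples as a sign that the screen worked. It also reports melt analysis and qRT-PCR of screened larvae from pilot experiments. Of 28 rows for neuron markers (among them ELAVL3 and ELAVL4), none was at 0 in any library, so that neuronal RNA was measured in every pool.

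The members varied most within a single group. In the VBA- cortisol libraries, replicates 1 and 2 were low and replicates 3 and 4 high: replicates 3 and 4 both stood above replicates 1 and 2 for 34 of 36 members, a pattern found in 34.3% of all 21686 genes tested. The median difference between the pairs over the members was 1.23 on the log2 scale, against -0.037 over all genes. The median deviation of the members from their own means over the 16 libraries was -0.72, -0.92, 0.61 and 0.32 in VBA- cortisol replicates 1 to 4. It was -0.083, -0.42, -0.31 and -0.023 in VBA- vehicle, 0.58, 0.62, 0.32 and 0.015 in VBA+ cortisol, and -0.073, 0.2, -0.010 and 0.068 in VBA+ vehicle libraries. The VBA- cortisol libraries thus held both the lowest levels of the 16 and levels that reached those of the VBA+ cortisol libraries. VBA- cortisol replicate 2 was the lowest library of all for 23 members and replicate 1 for 6. VBA+ cortisol replicates 1 and 2 were the highest for 11 members each. In the VBA+ cortisol group replicates 3 and 4 both lay below replicates 1 and 2 for 25 of 36 members (26.8% of all genes), with a median difference of -0.45. The median SD over the 4 libraries was 0.79 in VBA- cortisol, 0.26 in VBA- vehicle, 0.32 in VBA+ cortisol and 0.21 in VBA+ vehicle libraries for the members, and 0.40, 0.26, 0.24 and 0.21 in the same order for all genes.

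**Figure D1:**
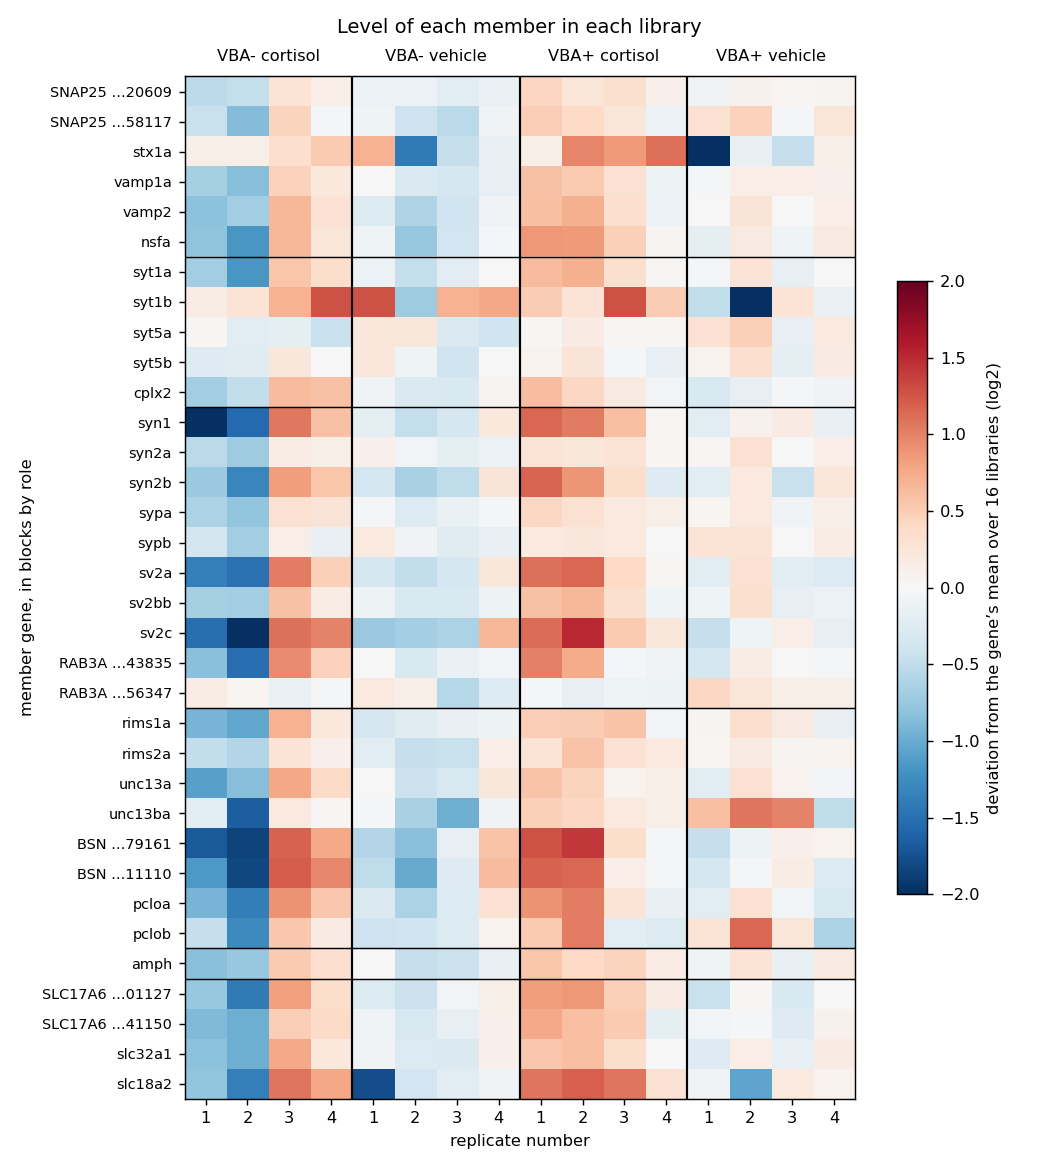
Deviation of 34 members from their own means over 16 libraries (colour, log2 scale, cut at -2 and 2), with members in rows by role and libraries in columns by group. Replicates 1 and 2 of VBA- cortisol lie below replicates 3 and 4 for all members drawn except RAB3A (ENSDARG00000056347) and syt5a, while the VBA+ vehicle libraries stay near the mean for most.

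The range over the 16 libraries shows how unevenly the members took part. Among the 31 members with a mean of at least 75, it ran between 0.73 for syt5b and 3.27 for BSN (ENSDARG00000079161), a copy of bassoon, the giant scaffold of the active zone. That copy of BSN had levels of 6.93, 6.76, 9.80 and 9.37 in VBA- cortisol, 8.03, 7.78, 8.45 and 9.19 in VBA- vehicle, 9.88, 10.03, 8.97 and 8.57 in VBA+ cortisol and 8.16, 8.52, 8.72 and 8.68 in VBA+ vehicle libraries. Its lowest level and a level close to its highest therefore came from pools of the same group. Cortisol-treated VBA+ larvae had the highest group mean for 31 of 36 members, against 33.3% of all genes, and the lowest group mean was that of VBA- cortisol for 20 and of VBA- vehicle for 14. In whole larvae, fewer neurons and less RNA per neuron cannot be told apart.

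The first comparison asks what continuous cortisol did in larvae that carry a functional GR. Vesicle release genes were mostly higher in VBA+ cortisol than in VBA+ vehicle libraries: the change was above 0 for 31 of 36 members, against 48.8% of all genes, and its median was 0.39, against -0.012 over all genes. A change of at least 0.5 was seen for 13 members (13.2% of all genes). Only 2 members rose past the test, SLC17A6 (ENSDARG00000001127) and syn1, and none fell. A call required an adjusted p of at most 0.05 in limma with Benjamini-Hochberg adjustment over all genes, a change of at least 0.5 in size, an SE (standard error) below 1 and the mean of 75 given above. By that rule 8.22% of all genes were called, 3.6% as higher and 4.63% as lower, so that the 2 calls among 36 members are near the background. The mean of 75 was reached by 31 of 36 members but by only 13772 of 21686 genes, and the rest could not be called. These shares over all genes are therefore a low bar, here and for the lists further below. Unadjusted p-values under 0.05 were found for 20 of 36 members and for 7511 of 21686 genes.

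SLC17A6 (ENSDARG00000001127) is a copy of the gene for VGLUT2, the transporter that fills vesicles with glutamate in many excitatory neurons of the vertebrate brain. Its levels were 8.78, 8.81, 8.42 and 8.11 in VBA+ cortisol libraries, against 7.49, 7.97, 7.64 and 7.95 in VBA+ vehicle libraries, so that the groups did not overlap. The change was 0.77 ± 0.17 (SE, n = 4 each; limma, adjusted p = 0.0232). It was no longer called without VBA+ cortisol replicate 1 or 2 (limma, adjusted p = 0.0721 and 0.0750) or without VBA+ vehicle replicate 1 (adjusted p = 0.0702).

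Synapsin 1, encoded by syn1, tethers vesicles in the reserve pool. Its levels were 9.57, 9.46, 9.03 and 8.44 in VBA+ cortisol libraries, against 8.20, 8.51, 8.59 and 8.27 in VBA+ vehicle libraries. Replicate 4 of the cortisol group lay within the vehicle range, and the other 3 lay above it. The change was 0.73 ± 0.22 (SE, n = 4 each; limma, adjusted p = 0.0490), just inside the threshold. The call was lost without any single library other than VBA+ cortisol replicate 4 (limma, adjusted p 0.0637 to 0.137).

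The count of called members rested on single libraries. It was 14, all higher, without VBA+ cortisol replicate 4, the library of that group in which the members were lowest. In that fit 2925 of 21686 genes were called, 1336 of them as higher. The count of members was 0 without VBA+ cortisol replicate 1, without replicate 2, or without VBA+ vehicle replicate 1. There 454, 414 and 440 genes of the table were called. Leaving out any of the other 4 libraries gave 1 member. In 1 fit with all 16 libraries, which takes in the VBA- cortisol libraries, the count of members was 0, and over all genes 21. Over the 8 fits without 1 library the count over all genes ran between 414 and 2925, and the median change of the members between 0.29 and 0.53. Within replicates 1 and 2 of both groups the members' median change was 0.54, and within replicates 3 and 4 it was 0.16. Equal replicate numbers do not mark matched pools, so these values reflect the spread within the groups.

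**Figure D2:**
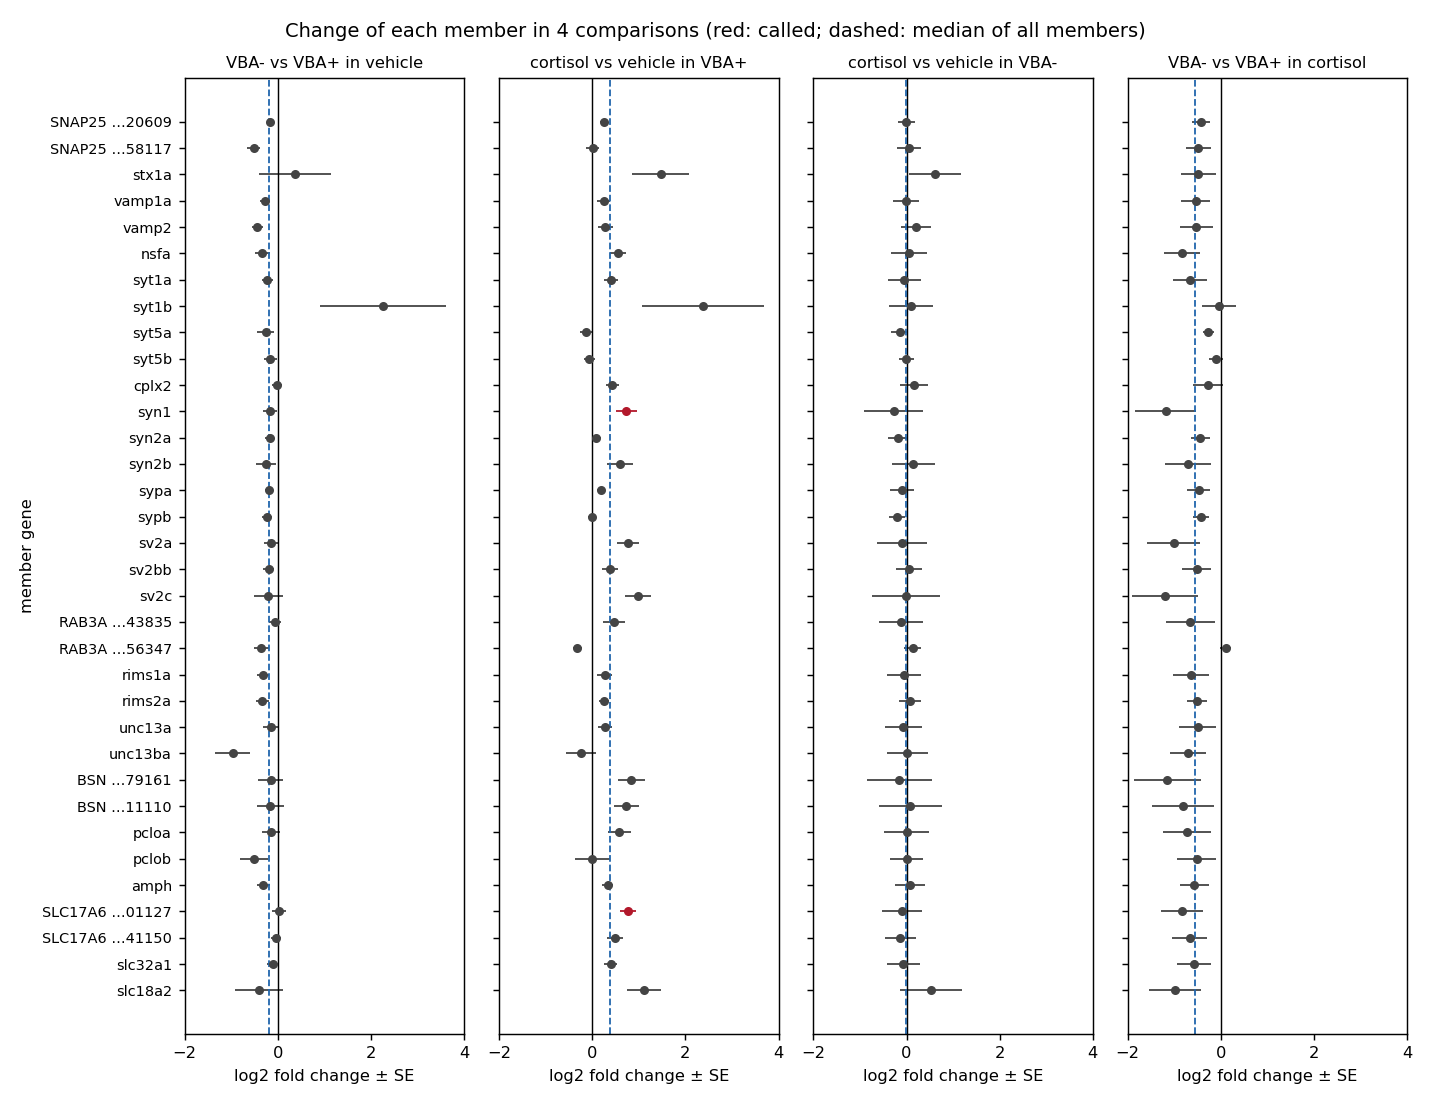
Change (log2 scale, points, with bars of ± 1 SE) of 34 members in 4 comparisons of 4 libraries against 4; red marks the 2 called members and the dashed line the median over all 36 members. The medians are -0.19, 0.39, -0.0026 and -0.56 in the panels running left to right.

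Among SNARE proteins and their regulators all 8 members had a change above 0 in VBA+ cortisol against VBA+ vehicle libraries, with a median of 0.27, and none was called. SNAP25 (ENSDARG00000020609) had 11.72, 11.53, 11.61 and 11.39 in VBA+ cortisol libraries, against 11.21, 11.37, 11.33 and 11.35 in VBA+ vehicle libraries, a small but non-overlapping difference of 0.25 ± 0.082 (SE; limma, adjusted p = 0.0648). Its other copy (ENSDARG00000058117) had 10.996, 10.91, 10.75 and 10.38 in VBA+ cortisol libraries, against 10.82, 10.96, 10.47 and 10.75 in VBA+ vehicle libraries, a change of 0.01 ± 0.14 (limma, adjusted p = 0.970). The 2 copies of this plasma membrane SNARE thus had different values, and no test was made between their changes. The gene nsfa, encoding the ATPase that takes spent SNARE complexes apart, had a change of 0.55 with an adjusted p just above the threshold (limma, 0.0559). For vamp2, synaptobrevin 2, levels were 9.24, 9.35, 8.97 and 8.52 in VBA+ cortisol libraries, against 8.64, 8.89, 8.64 and 8.77 in VBA+ vehicle libraries, and the groups overlapped. The syntaxin gene stx1a was measured close to the floor, with 2.61, 3.47, 3.34 and 3.597 in VBA+ cortisol libraries, against 0.14, 2.35, 2.04 and 2.61 in VBA+ vehicle libraries.

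Among calcium sensors and complexins, 3 of 5 members had a change above 0 in the same comparison. The main fast calcium sensor syt1a had 11.63, 11.72, 11.33 and 11.03 in VBA+ cortisol libraries, against 10.98, 11.28, 10.85 and 11.01 in VBA+ vehicle libraries (change 0.40 ± 0.15, SE; limma, adjusted p = 0.0908). Complexin 2 (cplx2), which clamps and then assists the SNARE complex, had 10.06, 9.86, 9.62 and 9.39 in VBA+ cortisol libraries, against 9.13, 9.28, 9.42 and 9.37 in VBA+ vehicle libraries (change 0.43 ± 0.14, SE; limma, adjusted p = 0.0553). In both genes 1 or more cortisol libraries lay within the vehicle range. The synaptotagmins syt5a and syt5b went the other way by less than their spread, with changes of -0.14 and -0.06. For syt1b, VBA+ vehicle replicate 2 was listed at 0, and its changes rest on that library.

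The 10 members that coat or span the vesicle membrane had changes between -0.32 and 0.99 in VBA+ larvae with cortisol, with a median of 0.43. The vesicle glycoprotein gene sv2a had 11.82, 11.87, 11.14 and 10.77 in VBA+ cortisol libraries, against 10.52, 11.03, 10.51 and 10.46 in VBA+ vehicle libraries, and missed the threshold narrowly (change 0.77 ± 0.23, SE; limma, adjusted p = 0.0516). Its relative sv2c had 6.44, 6.83, 5.86 and 5.56 in VBA+ cortisol libraries, against 4.86, 5.25, 5.46 and 5.17 in VBA+ vehicle libraries; these did not overlap and the adjusted p was 0.0394 in limma, but the mean of 48.9 normalized counts was below the limit of 75 applied per library. The study's methods equate 75 with an average of 5 counts per sample, and with no limit on the mean 3 members are called, sv2c being the third. The synaptophysins sypa and sypb, abundant vesicle proteins of uncertain function, had changes of 0.19 and -0.01.

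RAB3A (ENSDARG00000056347), a copy of the gene for the small GTPase that marks vesicles for docking, stood apart from most members. It had 8.12, 8.00, 8.09 and 8.07 in VBA+ cortisol libraries, against 8.58, 8.41, 8.28 and 8.29 in VBA+ vehicle libraries. All 4 cortisol libraries lay below all 4 vehicle libraries. The change of -0.32 ± 0.10 (SE; limma, adjusted p = 0.0486) did not reach 0.5 in size, so it was not called. The other copy (ENSDARG00000043835) had 8.33, 8.08, 7.30 and 7.26 in VBA+ cortisol libraries, against 6.98, 7.48, 7.32 and 7.30 in VBA+ vehicle libraries, high in cortisol replicates 1 and 2 only (change 0.47 ± 0.24, SE; limma, adjusted p = 0.182). Copies of 1 gene can share reads, which makes both sets of values uncertain.

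**Figure D3:**
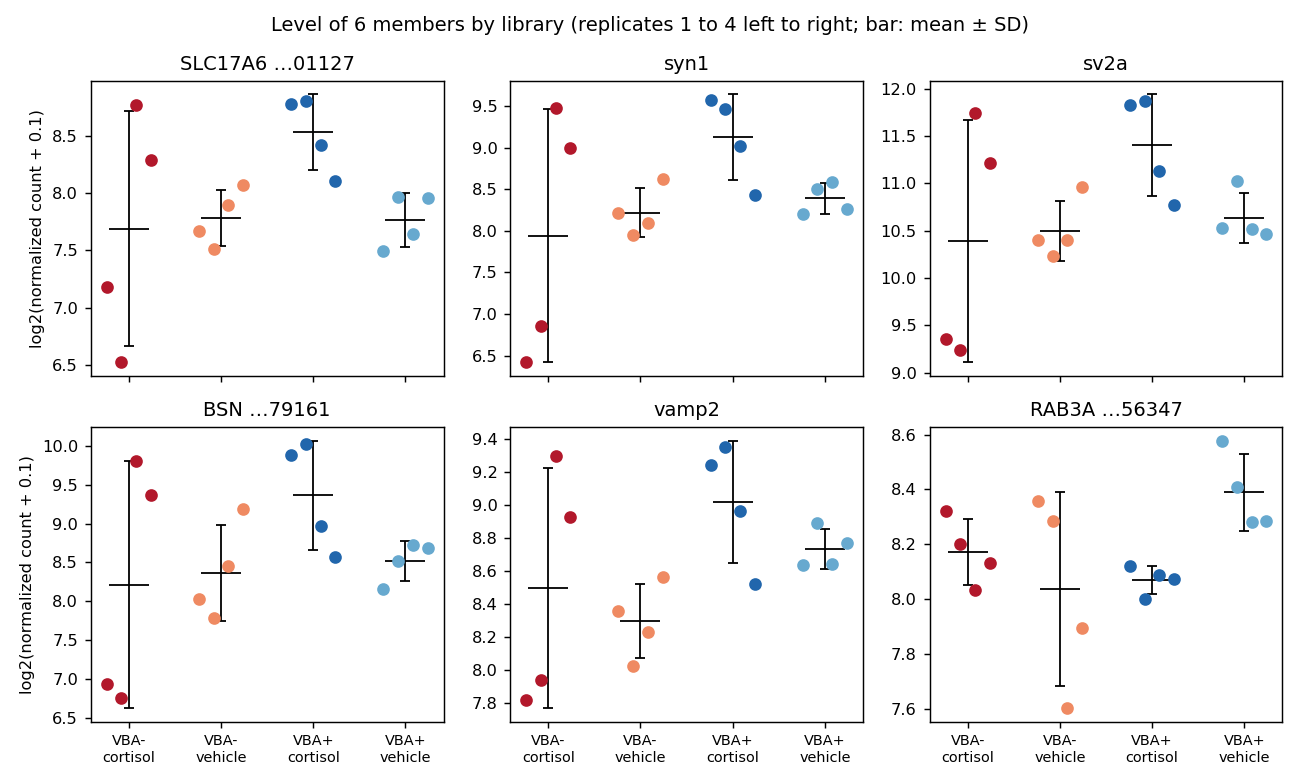
Levels (log2 of the normalized count plus 0.1) of 6 members in each library, with replicates 1 to 4 left to right within a group and the mean ± SD of the 4 libraries in black; the y axes do not start at 0. SLC17A6 (ENSDARG00000001127) in VBA+ cortisol libraries lies between 8.11 and 8.81, above its VBA+ vehicle libraries, and RAB3A (ENSDARG00000056347) lies between 8.00 and 8.12, below them.

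At the active zone, where vesicles are docked and primed, 7 of 8 members had a change above 0 in VBA+ larvae with cortisol, with a median of 0.27, and none was called. The RIM gene rims2a, which links vesicles to calcium channels, had 8.03, 8.32, 8.06 and 7.95 in VBA+ cortisol libraries, against 7.80, 7.92, 7.81 and 7.82 in VBA+ vehicle libraries, without overlap but with a change of only 0.25 ± 0.10 (SE; limma, adjusted p = 0.110). The Munc13 priming factor unc13a had 8.19, 8.06, 7.69 and 7.74 in VBA+ cortisol libraries, against 7.40, 7.93, 7.69 and 7.56 in VBA+ vehicle libraries, which overlapped. Both copies of BSN were high in VBA+ cortisol replicates 1 and 2 and close to the vehicle range in replicates 3 and 4, with changes of 0.84 ± 0.29 and 0.73 ± 0.27 (SE; limma, adjusted p = 0.0744 and 0.0839, the copy ENSDARG00000079161 given first). The piccolo gene pcloa changed by 0.58, and its copy pclob by 0.01.

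The recycling gene amph, encoding amphiphysin, which helps dynamin to pinch vesicles off, had 9.29, 9.13, 9.18 and 8.89 in VBA+ cortisol libraries, against 8.67, 9.003, 8.58 and 8.91 in VBA+ vehicle libraries (change 0.33 ± 0.12, SE; limma, adjusted p = 0.0834). The transporters that fill vesicles were all 4 above 0, with a median change of 0.63. Besides SLC17A6 (ENSDARG00000001127), described above, its other copy (ENSDARG00000041150) had 10.12, 9.96, 9.88 and 9.18 in VBA+ cortisol libraries, against 9.31, 9.34, 9.10 and 9.45 in VBA+ vehicle libraries (change 0.49; limma, adjusted p = 0.0860). The vesicular GABA and glycine transporter gene slc32a1 had 10.14, 10.20, 9.94 and 9.58 in VBA+ cortisol libraries, against 9.34, 9.73, 9.44 and 9.77 in VBA+ vehicle libraries (change 0.40; limma, adjusted p = 0.0886). Inhibitory and excitatory transporter genes thus had changes in the same direction, each with cortisol replicate 4 within or near the vehicle range. The monoamine transporter gene slc18a2, at 12.4 normalized counts on average, had 4.47, 4.59, 4.47 and 3.71 in VBA+ cortisol libraries, against 3.34, 2.35, 3.597 and 3.47 in VBA+ vehicle libraries, without overlap (change 1.12; limma, adjusted p = 0.0618).

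Counted over the whole list, the VBA+ cortisol and VBA+ vehicle groups did not overlap for 5 members that were higher (SNAP25 ENSDARG00000020609, sv2c, rims2a, SLC17A6 ENSDARG00000001127 and slc18a2) and 1 that was lower (RAB3A ENSDARG00000056347). Over all genes these shares were 8.44% and 11.8%, in sum 20.2%. By adjusted p alone 4 members passed, the 2 called ones, sv2c and that copy of RAB3A, against 15.1% of all genes.

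The second comparison asks what loss of the GR did without added cortisol. Vesicle release genes were slightly lower in VBA- vehicle than in VBA+ vehicle libraries: 3 of 36 members had a change above 0, against 46.7% of all genes, with a median of -0.19 and of -0.021 over all genes. No member was called (0.235% of all genes were), and the smallest adjusted p of a member was 0.155 in limma. At an unadjusted p under 0.05 there were 11 members, and 3032 of all genes. The study collected all pools of a group before the next group, so equal replicate numbers do not mark matched pools. With replicate number as a block all the same, the count of called genes was 195 in place of 51 over all genes. It stayed at 0 for the members, with a smallest adjusted p of 0.0545 in limma. The members' median ran between -0.29 and -0.15 when single libraries were left out, and was -0.30 within replicates 1 and 2 and -0.12 within replicates 3 and 4.

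The SNARE members and their regulators had a median change of -0.31, and the active zone members one of -0.24. The largest fall of a member was that of the active zone gene unc13ba (-0.97), whose mean was under 75 and whose groups overlapped. For 3 members the VBA- vehicle and VBA+ vehicle libraries did not overlap. All 3 were SNAREs that were lower in VBA-, and 2 of them were the copies of SNAP25. Over all genes 7.67% did not overlap, and 3.6% were lower without overlap. The count of 3 among 36 members is near the first of these shares. SNAP25 (ENSDARG00000058117) had 10.42, 10.09, 9.97 and 10.44 in VBA- vehicle libraries, against 10.82, 10.96, 10.47 and 10.75 in VBA+ vehicle libraries (change -0.52 ± 0.13, SE; limma, adjusted p = 0.155). SNAP25 (ENSDARG00000020609) had 11.17, 11.17, 11.06 and 11.15 in VBA- vehicle libraries, against 11.21, 11.37, 11.33 and 11.35 in VBA+ vehicle libraries (change -0.17 ± 0.066, SE; limma, adjusted p = 0.296). The third was vamp2, with 8.36, 8.03, 8.23 and 8.56 in VBA- vehicle libraries, against 8.64, 8.89, 8.64 and 8.77 in VBA+ vehicle libraries (change -0.44 ± 0.12, SE; limma, adjusted p = 0.177). None of the 3 passed the adjustment over all genes. The transporters moved least, with a median of -0.077, and SLC17A6 (ENSDARG00000001127) had 7.67, 7.51, 7.90 and 8.07 in VBA- vehicle libraries, against 7.49, 7.97, 7.64 and 7.95 in VBA+ vehicle libraries, a change of 0.021 ± 0.15 (SE; limma, adjusted p = 0.966).

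The third comparison asks what cortisol did in larvae that lack the GR. No difference of the vesicle release genes was detectable between VBA- cortisol and VBA- vehicle libraries: the median change was -0.0026, 16 of 36 members were above 0 (47.4% of all genes), and none was called. For no member did the groups stay apart (1.52% of all genes). No gene of the whole table was called either (0%). The study's own test with DESeq2 did report a small set of genes as higher with cortisol in VBA- larvae, npas4a among them. At an unadjusted p under 0.05 there were 0 members and 389 of 21686 genes. The SEs were wide, and the 4 VBA- cortisol libraries fell far apart. For syn1 they had 6.43, 6.86, 9.47 and 9.0, against 8.22, 7.95, 8.09 and 8.62 in VBA- vehicle libraries, with 2 libraries below and 2 above every vehicle library, and the change was -0.28 ± 0.63 (SE; limma, adjusted p = 1). For SLC17A6 (ENSDARG00000001127) they had 7.18, 6.53, 8.77 and 8.29, against 7.67, 7.51, 7.90 and 8.07 in VBA- vehicle libraries, in the same arrangement. Within replicates 1 and 2 the members' median change was -0.58, and within replicates 3 and 4 it was 0.61. Equal replicate numbers do not mark matched pools, so these values reflect the spread within the groups. Without VBA- cortisol replicate 3 the median was -0.26, and without replicate 2 it was 0.26.

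Most members were not alone in this, but a few stood aside. RAB3A (ENSDARG00000056347) had 8.32, 8.20, 8.03 and 8.13 in VBA- cortisol libraries, the only member besides syt5a that was not higher in both replicates 3 and 4, and 8.36, 8.29, 7.60 and 7.90 in VBA- vehicle libraries. For syt5a the levels were 8.73, 8.48, 8.52 and 8.27 in VBA- cortisol libraries, against 8.93, 8.93, 8.42 and 8.30 in VBA- vehicle libraries.

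The fourth comparison asks how the genotypes differed when both were given cortisol. The members were lower in VBA- cortisol than in VBA+ cortisol libraries, with a median change of -0.56 (0.0019 over all genes), 1 of 36 members above 0 (50.2% of all genes) and 23 at or below -0.5 (11.1%). The groups overlapped for every member (4.17% of all genes did not). None was called, nor was any gene of the table (0%), and the smallest adjusted p of a member was 0.591 in limma. Unadjusted p-values under 0.05 were found for 2 members and for 1701 of 21686 genes. The median was -1.44 within replicates 1 and 2 and 0.26 within replicates 3 and 4. Equal replicate numbers do not mark matched pools, so these values reflect the spread within the groups. For sv2a the levels were 9.36, 9.24, 11.75 and 11.21 in VBA- cortisol libraries, against 11.82, 11.87, 11.14 and 10.77 in VBA+ cortisol libraries. VBA- cortisol replicates 1 and 2 lay below every VBA+ cortisol library, and replicates 3 and 4 lay within the VBA+ cortisol range. Across single libraries left out, the median stayed between -0.82 and -0.32.

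An interaction term over all 16 libraries then set the cortisol effect of VBA- larvae against that of VBA+ larvae. The first minus the second had a median of -0.34 over the members (-0.66 to -0.12 without 1 library, lowest without VBA- cortisol replicate 3 and highest without VBA- cortisol replicate 2), and 5 of 36 were above 0 (50.8% of all genes). No member was called (0.00461% of all genes, that is 1 gene, was), and the smallest adjusted p of a member was 0.726 in limma. At an unadjusted p under 0.05 there was 1 member, RAB3A (ENSDARG00000056347), at 0.46 ± 0.20 (SE), and 1138 of all genes. The rise of syn1 and SLC17A6 (ENSDARG00000001127) in VBA+ larvae and the lack of a call in VBA- larvae are therefore not shown to differ, with interaction values of -1.01 ± 0.72 and -0.86 ± 0.50 (SE; limma, adjusted p = 0.726 for both).

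The 11 rows that could be the 6 unsettled members had changes on both sides of 0. Their median change was 0.30 in VBA+ cortisol against VBA+ vehicle, -0.11 in VBA- vehicle against VBA+ vehicle, 0.032 in VBA- cortisol against VBA- vehicle and -0.41 in VBA- cortisol against VBA+ cortisol libraries. One of them was called. NAPB (ENSDARG00000013669), a SNAP adaptor that recruits NSF to spent SNARE complexes, had 9.12, 8.73, 8.59 and 7.93 in VBA+ cortisol libraries, against 7.51, 7.63, 8.10 and 7.72 in VBA+ vehicle libraries (change 0.85 ± 0.23, SE; limma, adjusted p = 0.0348). Its call was lost in 6 of the 8 fits that left out 1 library. The single row of CPLX4 (ENSDARG00000059978), a complexin known for ribbon synapses of the mammalian retina, had 9.99, 9.87, 9.63 and 9.52 in VBA+ cortisol libraries, against 9.99, 10.00, 9.51 and 9.77 in VBA+ vehicle libraries, and these overlapped. The rows of DNM1, the neuronal dynamin, had changes of 0.31 (ENSDARG00000009281) and 0.00 (ENSDARG00000010042). Those of SLC17A7, the other vesicular glutamate transporter, had changes of -0.17 (ENSDARG00000016480) and 0.30 (ENSDARG00000090106), and the more abundant row of SLC18A3, the vesicular acetylcholine transporter (ENSDARG00000006356), had 0.18. Its other row (ENSDARG00000107527) had 2.04, 2.61, 3.02 and 1.63 in VBA+ cortisol libraries, against 2.83, 3.47, 3.47 and 2.83 in VBA+ vehicle libraries (change -0.83 ± 0.46, SE; limma, adjusted p = 0.226), which are low levels that overlapped. Larger changes in VBA+ cortisol against VBA+ vehicle were those of the 2 rows of SYT2 and the second row of NAPB. They were 1.28 for SYT2 (ENSDARG00000014169), whose mean of 38.8 was under 75, and 0.87 for SYT2 (ENSDARG00000025206). NAPB (ENSDARG00000069101) changed by 0.59 (limma, adjusted p = 0.0769, 0.0757 and 0.0707 in this order). None of these rows of SYT2, CPLX4, DNM1, SLC17A7 and SLC18A3, nor this second row of NAPB, was called in any comparison.

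A further list of 135 symbols from presynaptic gene families, of which 119 rows were tested, was used to see how related genes behaved. It was drawn by family, so not all of its genes are confined to nerve terminals. In VBA+ cortisol against VBA+ vehicle libraries, 10 of the 119 rose and 2 fell past the test (3.6% and 4.63% of all genes), with a median change of 0.21. None of the 119 was called with all 16 libraries in 1 fit or with a replicate block, and none without VBA+ cortisol replicate 1, without its replicate 2 or without VBA+ vehicle replicate 1. Without VBA+ cortisol replicate 4, 24 rose and 3 fell, against 1336 and 1589 of all 21686 genes tested. The risers held 3 neurexin genes, whose products reach from the presynaptic membrane into the synaptic cleft. These were NRXN3 by 0.76 ± 0.19, nrxn2a by 0.71 ± 0.20 and nrxn2b by 0.51 ± 0.13 (SE; limma, adjusted p = 0.028, 0.042 and 0.033). The risers also held CACNA1E, a voltage-gated calcium channel, by 0.73 ± 0.16, and PPFIA3, a liprin of the active zone scaffold, by 0.72 ± 0.18 (SE; limma, adjusted p = 0.023 and 0.030). The other risers were SH3GL1 by 0.71, STXBP5L by 0.63 and ITSN1 by 0.60 (limma, adjusted p = 0.026, 0.046 and 0.038). SYT11 (ENSDARG00000056105) and SCAMP1 rose by 0.565 and 0.508 (limma, adjusted p = 0.022 and 0.048). VAMP8, a SNARE of endosomal and secretory fusion outside the synapse, fell by 0.63 (SE 0.18; limma, adjusted p = 0.045), and STXBP6 fell by 0.58 (SE 0.16; limma, adjusted p = 0.041). In the other comparisons none of the 119 was called, and the median was -0.16 in VBA- vehicle against VBA+ vehicle, 0.026 in VBA- cortisol against VBA- vehicle and -0.34 in VBA- cortisol against VBA+ cortisol libraries.

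Neuron markers outside the vesicle cycle moved alongside the members. Their median deviation per library was -0.77, -0.85, 0.46 and 0.31 in VBA- cortisol replicates 1 to 4, and 0.50, 0.55, 0.34 and 0.00 in VBA+ cortisol replicates 1 to 4. The log2 of their summed normalized count ran between 14.2 and 15.3 in VBA- cortisol, 14.6 and 14.8 in VBA- vehicle, 14.9 and 15.3 in VBA+ cortisol and 14.8 and 14.9 in VBA+ vehicle libraries. The same sum over the members ran between 13.8 and 15.3, 14.4 and 14.7, 14.7 and 15.3, and 14.7 and 14.9, in the same order of groups. In VBA+ cortisol against VBA+ vehicle libraries, 8 of the 28 neuron marker rows rose past the test and 1 fell (3.6% and 4.63% of all genes). The risers included ELAVL3 by 0.60 ± 0.16 and ELAVL4 by 0.71 ± 0.19 (SE; limma, adjusted p = 0.038 and 0.036), RNA-binding proteins of postmitotic neurons. The row that fell was STMN1 (ENSDARG00000004169), with a change of -0.97 ± 0.16 (SE; limma, adjusted p = 0.012), the smallest adjusted p among these called rows. None of the 28 was called with all 16 libraries in 1 fit or with a replicate block, and between 0 and 12 rose when 1 library was left out, with 0 without VBA+ cortisol replicate 1 or 2 or VBA+ vehicle replicate 1 and 12 without VBA+ cortisol replicate 4. Over all genes 1336 rose past the test in the last of these fits. The median of the neuron marker list was 0.33. Its medians were -0.19 in VBA- vehicle against VBA+ vehicle, -0.076 in VBA- cortisol against VBA- vehicle and -0.55 in VBA- cortisol against VBA+ cortisol libraries, close to those of the members. The part of the neuron markers in the members' values was not tested.

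**Figure D4:**
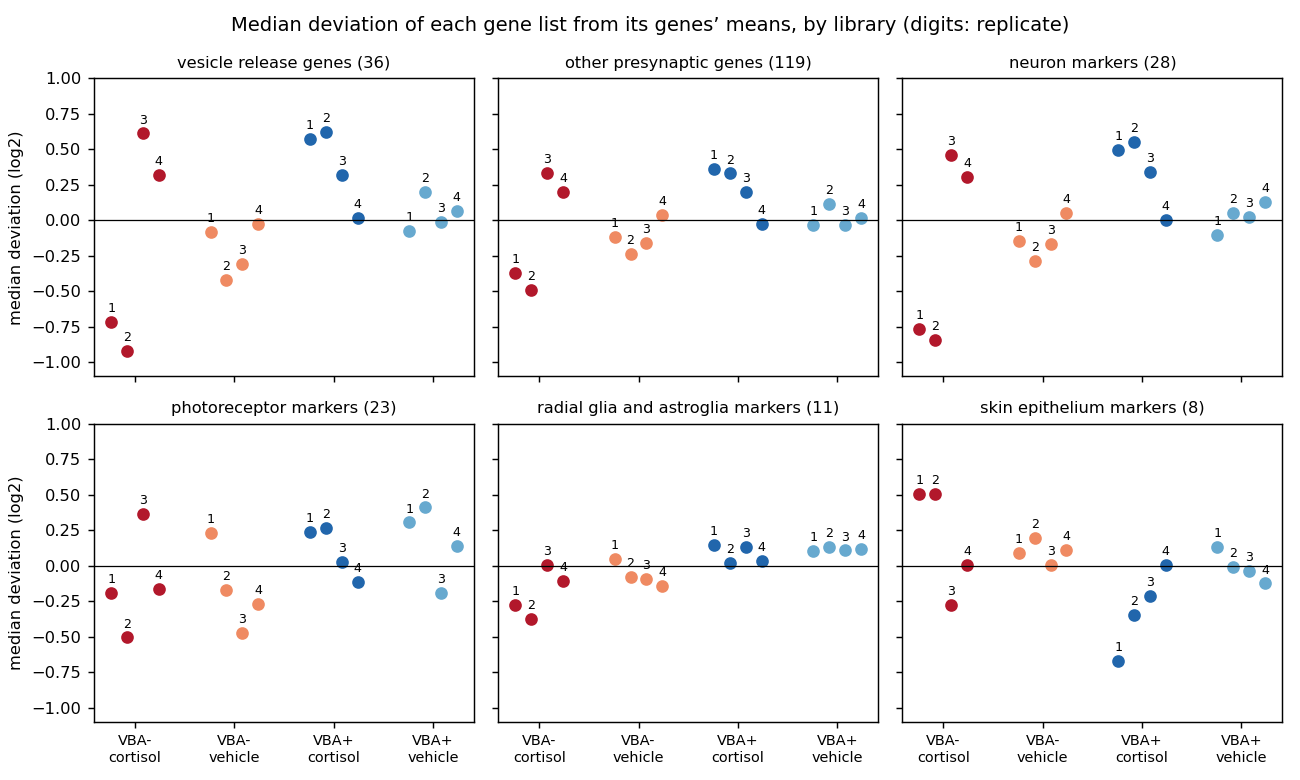
Median deviation of 6 gene lists from the means of their genes over 16 libraries (y, log2 scale), 1 point per library with its replicate number, in 4 groups. The neuron markers run between -0.85 and 0.55 in step with the vesicle release genes, which run between -0.92 and 0.62, and the skin epithelium markers are high (0.51) in the 2 VBA- cortisol libraries in which both are low. The liver, neuroendocrine, myelinating glia, muscle and dividing-cell markers are not drawn.

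Among markers of other cells, most lists had median deviations of the same sign as the members in most cortisol libraries. These were the neuroendocrine, liver, myelinating glia, skeletal muscle, photoreceptor, and radial glia and astroglia lists. The dividing-cell and skin epithelium lists did not. The 14 neuroendocrine markers had median deviations of -0.51, -0.52, 0.43 and 0.31 in VBA- cortisol replicates 1 to 4 and of 0.50, 0.52, 0.23 and -0.033 in VBA+ cortisol replicates 1 to 4. Their median change was 0.37 in VBA+ cortisol against VBA+ vehicle libraries. There 1 was called as lower (4.63% of all genes), or 0 with the replicate block or with all 16 libraries in 1 fit. The 10 liver markers had -0.41, -0.87, 0.63 and 0.54 in VBA- cortisol replicates 1 to 4, low in replicates 1 and 2 and high in replicates 3 and 4 as the members were. In VBA+ cortisol replicates 1 to 4 they had 0.16, 0.31, 0.28 and 0.17, against -0.87, -0.85, -0.046 and 0.019 in VBA+ vehicle replicates 1 to 4. Their median change there was 0.77, and 4 of 10 rose past the test (3.6% of all genes). The count was 0 with the replicate block or with all 16 libraries in 1 fit. It was also 0 without VBA+ cortisol replicate 1 or 2 or VBA+ vehicle replicate 1 or 2. In VBA- vehicle against VBA+ vehicle libraries the liver markers had a median of 0.70, where the members' median was -0.19. Of these markers 1 was called as higher (0.235% of all genes were called), or 5 with the replicate block. Of the 16 markers of dividing cells, 4 fell past the test in VBA+ cortisol against VBA+ vehicle libraries (4.63% of all genes). Their median was -0.31, and 0 fell past the test with the block or with all 16 libraries. The 9 markers of myelinating glia and the 12 of skeletal muscle had medians of -0.023 and 0.00 in that comparison. There was 1 called as higher among the glia markers, and 1 higher and 1 lower among the muscle markers (3.6% higher and 4.63% lower over all genes). Of the muscle markers 5 were above 0 and 2 below, and the rest were at 0. Since all libraries share 1 set of values, the most abundant genes can hold the same value in every library. The muscle median therefore does not show a stable level. This limit also holds for the 8 skin epithelium markers. In VBA- vehicle against VBA+ vehicle libraries 4 of them were above 0 and 1 below, and the rest were at 0. The 8 skin epithelium markers had median deviations of 0.51, 0.51, -0.28 and 0.005 in VBA- cortisol replicates 1 to 4 and of -0.67, -0.34, -0.21 and 0.005 in VBA+ cortisol replicates 1 to 4, opposite in sign to the members in most of these libraries, and 2 of the 8 fell past the test in VBA+ cortisol against VBA+ vehicle libraries (4.63% of all genes). Neither call remained with all 16 libraries in 1 fit, with a replicate block, or without VBA+ cortisol replicate 1 or 2 or VBA+ vehicle replicate 1 or 2. The log2 of their summed normalized count ran between 18.6 and 18.96 in VBA- cortisol, 18.7 and 18.8 in VBA- vehicle, 18.2 and 18.7 in VBA+ cortisol and 18.7 and 18.8 in VBA+ vehicle libraries. The 11 markers of radial glia and astroglia ran between -0.38 and 0.15 over the 16 libraries, and the 23 photoreceptor markers between -0.51 and 0.41. In VBA- cortisol replicates 1 to 4 the radial glia and astroglia list had -0.277, -0.375, 0.004 and -0.108. The photoreceptor list had -0.192, -0.506, 0.363 and -0.164 there, and the muscle list -0.229, -0.181, 0.097 and 0.00. The myelinating glia list had -0.375, -0.278, 0.02 and 0.191 there. In VBA+ cortisol replicates 1 to 4 it had 0.039, 0.039, 0.09 and 0.103. Photoreceptor markers were below 0 for 23 of 23 rows in VBA- vehicle against VBA+ vehicle libraries, with a median of -0.37 and no call, or 1 called as lower with the replicate block. In the same comparison dividing-cell and myelinating glia markers had medians of -0.205 and -0.23, near that of the members, with 15 of 16 and 7 of 9 rows below 0. The medians were -0.145 for radial glia and astroglia, -0.067 for neuroendocrine, -0.031 for muscle and 0.094 for skin markers. In that comparison 1 muscle row, TNNT3 (ENSDARG00000068457), was called as lower, with a change of -0.91 ± 0.12 (SE; limma, adjusted p = 0.031). No skin, glia, photoreceptor or muscle marker was at 0 in any library, and 1 liver, 1 dividing-cell and 2 neuroendocrine rows were at 0 in some. The part of all these markers in the members' values was not tested.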

How the data were processed

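Whole-larva RNA was sequenced as poly(A)-selected libraries in 16 pools, 4 per group. The authors trimmed reads with Trimmomatic (0.36 in the submitters' processing notes), aligned them with STAR 2.6.1b to GRCz11 with Ensembl annotation, estimated gene counts with RSEM 1.3.0 and normalized these with EDASeq in R 3.6.1, for GC content within and by full quantiles between libraries. The deposited values are log2 of the normalized count plus 0.1, with 310 zeros in each library. Ties are frequent. The added 0.1 slightly understates the change of low genes, but a single 0, listed as -3.32, can also make such a change large. For syt1b the change in VBA+ cortisol against VBA+ vehicle was 2.38, and as low as 0.75 without 1 library. The authors tested counts with DESeq2 1.24.0. Since the table holds no raw reads per gene, tests were made with limma 3.58.1 (R 4.3.3; lmFit, eBayes with trend, two-sided), with 8 libraries per comparison, 16 for the interaction, and Benjamini-Hochberg adjustment over the 21686 genes whose mean normalized count reached 5. The limits for a call are those of the study's methods, which equate a mean of 75 with 5 counts per sample on average; here 75 was applied as the mean per library, a stricter limit than 5, and 13772 genes reached it. The fits were tested on simulated data with 200 changed genes. Those values were drawn independently for each gene and library. The simulation therefore does not cover deviations that many genes of a library share.

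The members and lists were chosen with earlier results of these data known. Values per library are given for called members, for representatives of each role, and for other members picked after their values were seen. Symbols came from a gene name table with a symbol for 21794 IDs; 121 of the 135 other presynaptic symbols matched. Deviations of same-numbered libraries from group means were correlated over the 13772 genes. The 4 correlations were 0.253, 0.212, 0.309 and 0.235 for VBA- against VBA+ in vehicle, and 0.288, 0.657, 0.0782 and 0.67 for cortisol against vehicle in VBA-. They were -0.344, -0.0938, -0.267 and -0.242 for cortisol against vehicle in VBA+, and -0.601, -0.59, -0.449 and -0.625 for VBA- against VBA+ in cortisol. The collection paired no libraries, so the block is an alternative setting only. With negative correlations a block removes no shared deviation, so calls lost with it show only how the fit depends on that term. No batch is stated for these libraries; replicates 1 and 2 were set against 3 and 4 as an alternative. Sequences and promoters were not analysed here. One gene with 2 rows among the members enters the counts and medians but is not reported here by name or in the plots of single members. Plots used Python 3.11.15 and matplotlib 3.10.9.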

Additional observations from a re-analysis of the deposited data

Results flagged for a closer look

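In a group of 4 libraries, 1 library stood far from the other 3 by Dixon's criterion in 8 of 144 combinations of a member and a group, and about 1 in 20 is what chance gives. VBA+ cortisol replicate 4 was the low library for 3 members: sypb with 10.72 (others 10.91 to 10.94), rims1a with 7.37 (others 7.92 to 7.995) and slc18a2 with 3.71 (others 4.47 to 4.59). VBA+ vehicle replicate 2 was the high library for sv2a, with 11.03 (others 10.46 to 10.53), and the low library for syt1b, which was listed at 0 there, that is -3.32 on the log2 scale (others 2.83 to 3.597). VBA+ cortisol replicate 2 was high for syt5a, with 8.88 (others 8.73 to 8.75). VBA- vehicle replicate 4 was high for sv2c, with 6.002 (others 4.59 to 4.71), and VBA- vehicle replicate 3 was low for SNAP25 (ENSDARG00000020609), with 11.06 (others 11.15 to 11.17).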

How the results depend on the processing

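In VBA+ cortisol against VBA+ vehicle, the 1783 called genes and 2 called members became 6 and 0 with a replicate block, 21 and 0 with all 16 libraries in 1 fit, 619 and 0 without the trend, and 3276 and 4 by adjusted p alone. Once a term set replicates 1 and 2 apart from 3 and 4, 1858 genes and 5 members were called. Without the filter on low values these were 1442 of 22994 genes and 1 member. Leaving out 1 library gave 414 to 2925 genes and 0 to 14 members. In VBA- vehicle against VBA+ vehicle, the 51 called genes became 195 with the replicate block, 16 with all 16 libraries, 363 with the term for replicate pairs, 1 without the trend, 8 without the filter and 1 to 63 without 1 library, and no member was called in any of these. In VBA- cortisol against VBA- vehicle, where no gene was called, all 16 libraries gave 5 genes and the term for replicate pairs 2. In VBA- cortisol against VBA+ cortisol, also with none, these gave 10 and 1, and leaving out 1 library 0 to 2. The members' median there was -1.44 within replicates 1 and 2 and 0.26 within replicates 3 and 4. The interaction called 0 genes in place of 1 with the replicate block, and 0 to 1 without 1 library. The cause of these shifts was not tested. With the block in VBA+ cortisol against VBA+ vehicle, no gene of any list was called. There syn1, SLC17A6 (ENSDARG00000001127) and NAPB (ENSDARG00000013669) lost their calls (limma, adjusted p = 0.0916, 0.0828 and 0.0903), as did the other presynaptic genes and all markers. Same-numbered libraries deviated in opposite directions in that comparison, with correlations of -0.344 to -0.0938.

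Small changes turned direction when 1 library was left out. In VBA+ cortisol against VBA+ vehicle they ran between -0.083 and 0.135 for SNAP25 (ENSDARG00000058117), -0.17 and 0.01 for CPLX4, -0.062 and 0.085 for DNM1 (ENSDARG00000010042), -0.155 and 0.016 for syt5b, -0.07 and 0.036 for sypb, and -0.29 and 0.30 for pclob. In VBA- cortisol against VBA- vehicle they ran between -0.79 and 0.23 for syn1, -0.45 and 0.29 for SLC17A6 (ENSDARG00000001127), and -0.008 and 0.244 for RAB3A (ENSDARG00000056347). In VBA- vehicle against VBA+ vehicle SLC17A6 (ENSDARG00000001127) ran between -0.072 and 0.114. Of the values for named genes under settings that kept all libraries, 441 kept their direction and side of the threshold. Most of the 441 were values not called in the main fit. A call was gained by 6 values and lost by 10. All 10 losses were those of syn1, SLC17A6 (ENSDARG00000001127) and NAPB (ENSDARG00000013669), the only called genes among them. Counts that include the 11 unsettled rows, or that drop the limit on the mean, were added after seeing the data and gave 3 called members each. Depth is unknown, so precision rests on 4 pools per group.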
